A study of Mus musculus with 34 samples.

Results

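The nuclear genes of the respiratory chain encode the subunits of complexes I to V of the inner mitochondrial membrane, the electron transport chain and ATP synthase. They were taken by name from the GRCm38 annotation, among genes of the autosomes and X that code for protein. The symbol had to start with Nduf, Uqcr, Cox4i, Cox5, Cox6, Cox7, Cox8 or Atp5, or to be Sdha, Sdhb, Sdhc, Sdhd or Cyc1. The rule found 97 genes of 21631, namely 41 of complex I, 8 Ndufaf assembly factors of complex I, 4 of complex II, 9 of complex III, 18 of complex IV and 17 of complex V. A further 19 symbols fit the names but are not protein-coding and were left out. The study profiled chromatin in C2C12, an established mouse myoblast line, with a multi-target form of chromatin integration labelling in which antibody-bound probes let Tn5 insert a tag next to the bound site, and the tagged DNA is copied by transcription before sequencing. Cells stained for H3K4me3 and CTCF together gave H3K4me3 libraries at 10000 and 1000 cells and CTCF libraries at 10000 and 1000 cells, and cells stained for H3K27ac and Pol2S2P together gave H3K27ac libraries at 1000 and 100 cells and Pol2S2P libraries at 1000 and 100 cells, with 3 libraries in each of these groups. CTCF alone at 10000 cells and Pol2S2P alone at 1000 cells were stained singly, with 2 libraries each. H3K4me3 marks active gene starts, H3K27ac marks active starts and enhancers, CTCF is a zinc finger protein that binds insulators and loop anchors, and Pol2S2P is the elongating form of RNA polymerase II, which carries phosphate on serine 2 of the repeats in its tail.

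Electrons enter the chain at complex I from NADH or at complex II from succinate, pass through complex III and cytochrome c to complex IV, and the proton gradient built on the way drives ATP synthase, complex V. Most subunits are encoded in the nucleus and are made in nearly every cell, and their promoters are known for binding NRF1, GABPA of the ETS family, YY1, SP1 and, in tissues with high oxidative demand, ERR factors. A few subunits of complex IV come in tissue versions: Cox6a2, Cox7a1 and Cox8b are the heart and skeletal muscle forms, Cox6b2, Cox7b2 and Cox8c are known from testis, and Cox4i2 from lung. Ndufa4l2 is a hypoxia-induced relative of Ndufa4, which keeps a complex I name but is a subunit of complex IV; both are counted here under complex I, as their names have it.

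Library sizes ran from 719766 to 6653298 counts, lowest in H3K4me3 at 1000 cells (719766 to 1317176) and highest in CTCF single staining (5159843 to 6653298). Each gene was read over its span with 2 kb on either side. The 97 windows cover 5 to 111 bins of 1 kb, with a median of 12 against 22 for all genes, and 1661 bins in all, 0.0631% of the genome analysed. Respiratory chain genes lie close to others: 68 of 97 windows (70.1%) held bins of another coding gene, against 39.9% of all windows, so values of those genes can include a neighbour. Markers of the cell line went both ways, with H3K4me3 at 10000 cells averaging 44.6 times the genome mean per kb over Vim, 26.7 over Myf5 and 8.88 over Itga7, but 1.05 over Myod1, the defining myoblast regulator, and 0.321 over Pax7. The 8 markers of differentiated muscle lay between 0.385 and 2.84, and those of liver, blood, neurons and adipocytes between 0.302 and 2.00. The labels do not state whether the libraries of a group are from separate cultures, and the p-values below measure the spread between these libraries, which may be technical.

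RefSeq gives a start on GRCm38.p6 for 78 of the 97 genes, and the sequences are its 250 bases before and 50 bases after that start. The palindrome bound by NRF1 (written in capitals in the first 2 sequences) stood in 7 of 78 respiratory promoters (8.97%) and in 1.35% of 17274 promoters of all genes, in Uqcrc1, Atp5k, Ndufa11, Cox6a1, Atp5g2, Ndufaf5 and Ndufaf4. Of the other motifs searched on both strands, the ETS letters CCGGAAG were in 23.1% against 12.1% of all promoters, the YY1 letters AAGATGG in 14.1% against 6.4%, and the ERR letters AAGGTCA in 10.3% against 4.04%. The SP1 letters GGGCGG were about as common in both (44.9% and 46.9%), while the E-box CAGCTG was in 7.69% against 15.2% and TATAAA in 10.3% against 13.4%. None of these motifs contains another, and a match is only a run of letters. The promoters of Cox6a1, a complex IV subunit, and Atp5g2, a ring subunit of ATP synthase, are shown for the NRF1 palindrome, in capitals, which begins 162 and 42 bases before the start. They lie on the minus strand at chr5:115348909-115349208 and chr15:102670998-102671297.
Cox6a1: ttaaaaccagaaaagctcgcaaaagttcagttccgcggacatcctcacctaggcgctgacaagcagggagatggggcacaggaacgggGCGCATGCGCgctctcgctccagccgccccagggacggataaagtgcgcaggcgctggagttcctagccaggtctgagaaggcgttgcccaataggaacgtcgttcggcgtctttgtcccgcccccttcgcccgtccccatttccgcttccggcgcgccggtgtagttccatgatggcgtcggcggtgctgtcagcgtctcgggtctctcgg
Atp5g2: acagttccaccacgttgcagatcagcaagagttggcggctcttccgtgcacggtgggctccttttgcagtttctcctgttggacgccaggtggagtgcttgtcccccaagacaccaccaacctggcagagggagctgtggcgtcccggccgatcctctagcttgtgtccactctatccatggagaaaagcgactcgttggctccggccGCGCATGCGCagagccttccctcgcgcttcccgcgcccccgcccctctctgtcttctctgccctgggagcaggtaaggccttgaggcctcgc

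CpG content differed between isoform partners. Of the 4 pairs with both starts known, the tissue-restricted form had fewer CpG in 3 (Cox6b2, Cox7a1 and Cox8b), while Cox7b2 had 10 and its partner Cox7b 5. The median promoter of the chain had 19.5 CpG in its 300 bases, against 14 in all promoters, and a ratio of observed to expected CpG of 0.831, against 0.586. The muscle forms Cox8b and Cox7a1 are shown above their ubiquitous partners Cox8a and Cox7a2, with each CpG in capitals. Cox8b (minus strand, chr7:140900397-140900696) has 2, Cox8a (minus strand, chr19:7217567-7217866) has 19, Cox7a1 (plus strand, chr7:30183921-30184220) has 7 and Cox7a2 (minus strand, chr9:79759804-79760103) has 20.
Cox8b: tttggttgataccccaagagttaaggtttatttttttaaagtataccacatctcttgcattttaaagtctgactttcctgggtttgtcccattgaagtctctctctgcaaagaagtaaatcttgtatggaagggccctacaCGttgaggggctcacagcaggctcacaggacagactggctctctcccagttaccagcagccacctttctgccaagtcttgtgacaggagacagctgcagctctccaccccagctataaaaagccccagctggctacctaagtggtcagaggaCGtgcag
Cox8a: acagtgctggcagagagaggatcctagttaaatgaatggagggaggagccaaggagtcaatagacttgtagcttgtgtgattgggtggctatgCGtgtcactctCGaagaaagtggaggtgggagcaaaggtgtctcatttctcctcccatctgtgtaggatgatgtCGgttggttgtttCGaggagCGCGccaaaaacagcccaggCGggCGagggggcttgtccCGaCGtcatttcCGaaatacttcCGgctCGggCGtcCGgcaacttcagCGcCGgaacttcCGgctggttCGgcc
Cox7a1: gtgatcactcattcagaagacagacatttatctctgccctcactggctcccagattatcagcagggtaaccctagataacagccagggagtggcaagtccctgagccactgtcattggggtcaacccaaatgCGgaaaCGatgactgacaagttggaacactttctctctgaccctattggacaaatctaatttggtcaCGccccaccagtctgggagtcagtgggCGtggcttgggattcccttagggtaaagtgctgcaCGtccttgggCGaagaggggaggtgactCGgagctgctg
Cox7a2: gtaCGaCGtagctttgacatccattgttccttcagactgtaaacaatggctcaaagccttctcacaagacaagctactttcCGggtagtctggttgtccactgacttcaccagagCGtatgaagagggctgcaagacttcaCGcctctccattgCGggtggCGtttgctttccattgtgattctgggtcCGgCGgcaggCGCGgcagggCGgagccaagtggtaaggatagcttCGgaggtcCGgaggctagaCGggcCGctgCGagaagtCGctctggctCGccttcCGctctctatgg
H3K4me3 within 1 kb of the start at 10000 cells averaged 0.857 ± 0.744 times the genome mean at Cox8b and 29.1 ± 1.60 at Cox8a (SD, n = 3). The values were 2.68 ± 1.46 at Cox7a1 and 26.1 ± 3.85 at Cox7a2 (SD, n = 3). Low CpG content and low H3K4me3 did not always go together: Cox7b carried 27.1 ± 2.18 (SD, n = 3). The 14 promoters with an observed to expected ratio under 0.6 had a median of 10.7, against 25.1 in the other 64.

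All 4 targets were denser over the respiratory genes than over the typical gene, H3K4me3 by the most. Density is given as reads per kb relative to the genome mean. The median over the 97 genes was 7.66 for H3K4me3 at 10000 cells, against 1.49 over all genes, and 2.46 for CTCF at 10000 cells, against 1.45. It was 1.85 for H3K27ac at 1000 cells, against 1.16, and 2.77 for Pol2S2P in dual staining at 1000 cells, against 1.42. In H3K4me3, 89 of the 97 genes lay above the median gene and 41.2% lay above the 90th percentile of all genes. Within 1 kb of the 78 known starts, where windows are of one length, 24.4% lay above the 90th percentile of all starts. The 97 windows together held 0.429% ± 0.00701 of H3K4me3 counts, 0.146% ± 0.000352 of CTCF counts, 0.114% ± 0.00152 of H3K27ac counts and 0.164% ± 0.00137 of Pol2S2P counts (SD, n = 3 each).

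**Figure D1:**
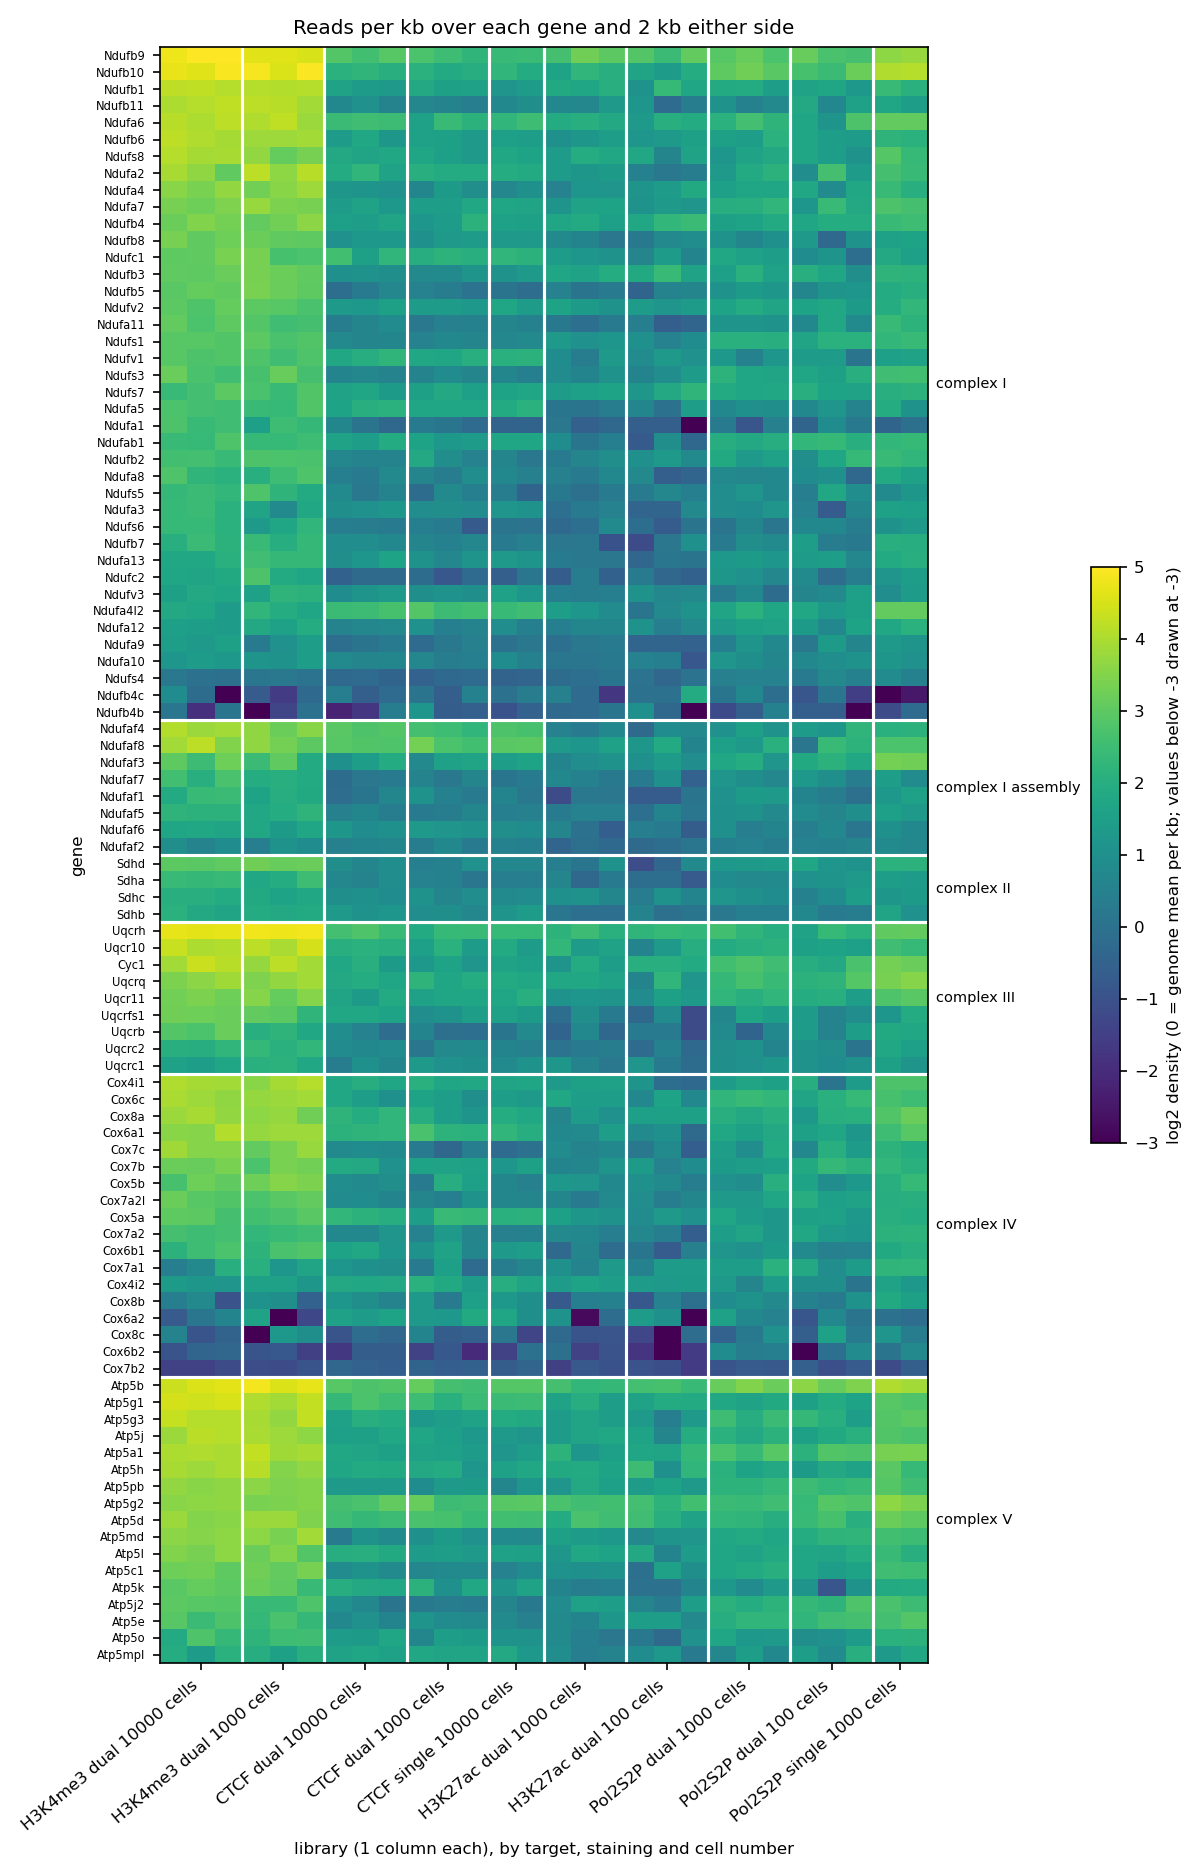
Log2 density over the span and 2 kb either side of 96 of the 97 genes (rows, grouped by complex and sorted by H3K4me3 at 10000 cells) in the 28 libraries (columns, grouped by target, staining and number of cells; 0 is the genome mean per kb). H3K4me3 is bright over most rows, and the tissue forms of complex IV (Cox7b2, Cox6b2, Cox8c, Cox6a2, Cox8b) are dark there.

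Complex V had the highest median density of H3K4me3 (12.4 times the genome mean), followed by complex III (10.0), complex I (7.08), complex IV (6.72), the assembly factors (5.16) and complex II (4.59). Complexes V and III were also the 2 highest for CTCF (3.19 and 3.29), H3K27ac (2.88 and 2.23) and Pol2S2P in dual staining (4.10 each). With 4 to 41 genes a complex and wide ranges within each, these medians are a description. They average over windows of unlike length, so they do not rank the complexes by density at the start. The windows of complex II cover 33 bins at Sdha, 23 at Sdhb, 27 at Sdhc and 13 at Sdhd, against a median of 12 for the chain. In H3K4me3 the shortest, Sdhd, was the densest of complex II, but Sdhb and not the longest, Sdha, was lowest. The part of window length in the order of complexes was not tested.

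Among single genes, Ndufb9, an accessory subunit of complex I (chr15:58933801-58939516), had the densest H3K4me3, with 28.0, 31.7 and 32.7 in the 3 libraries at 10000 cells. At 1000 cells it had 24.0 and lay below Uqcrh (28.3), Ndufb10 (28.1) and Atp5b (26.3). It also led complex I for H3K27ac at 1000 cells (7.95 ± 1.65) and for CTCF in dual staining at 10000 cells (6.92 ± 0.788, SD, n = 3 each), while Ndufa4l2 was above it for CTCF in dual staining at 1000 cells (6.3 and 5.69) and in single staining (5.59 and 5.38). Its window shares bins with Mtss1 and Tatdn1. Uqcrh, the hinge protein of complex III (chr4:116066965-116075070), came after Ndufb9 and Ndufb10 and varied little between libraries, at 25.9, 25.3 and 25.8. At its start, which faces that of Lrrc41, H3K4me3 reached 71.6 ± 0.421 (SD, n = 3), the highest of the 78 starts. Atp5b, the catalytic beta subunit of ATP synthase (chr10:128083307-128090388), led complex V for H3K4me3 (23.4 ± 2.35) and had the densest Pol2S2P of all 97 genes in dual staining (9.68 ± 1.24, SD, n = 3 each). The densest single bin of Atp5b for CTCF, H3K27ac and Pol2S2P lay 7.67 kb from its start, past its annotated end, and held 23.3, 8.43 and 18.1 times the genome mean. The Atp5b window shares bins with Baz2a. Ndufb10, an accessory subunit of complex I, was second of the 97 for H3K4me3 at 10000 cells (27 ± 2.88) and for Pol2S2P in dual staining at 1000 cells (8.45 ± 1.04, SD, n = 3 each). In Pol2S2P single staining it was first, at 17.02 against 15.7 at Atp5b (n = 2 each). Only 4 of the 7 bins of the Ndufb10 window are its own. The others are shared with Rpl3l and the ribosomal protein gene Rps2, whose part in these values was not tested.

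At the low end of H3K4me3, Cox7b2 (chr5:71442823-71548205) carried 0.371, 0.376 and 0.446. Ndufb4b, a copy of the complex I subunit Ndufb4 within the Dock8 window, carried 1.11, 0.267 and 1.09 from 3, 1 and 3 counts. Ndufs4, a complex I subunit mutated in Leigh syndrome, averaged 1.04 ± 0.0940 over its 105 bins but 13.2 ± 2.33 within 1 kb of its start (SD, n = 3 each). Of the catalytic and core subunits, Uqcrc1, a core protein of complex III, was lowest in its complex at 3.01 ± 0.207, and Sdhb, the iron-sulfur subunit of complex II, lowest in its own at 3.66 ± 0.571 (SD, n = 3 each). Sdhd, the membrane anchor of complex II, was the densest of complex II at 7.93 ± 0.282 (SD, n = 3). Such ranks are of densities averaged over windows of unlike length, not of densities at the start.

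The subunits listed as catalytic and core spanned a wide range of H3K4me3 at 10000 cells. The list takes in Cox4i1, Cox5a and Cox5b, which are accessory subunits of complex IV. Atp5b was followed by Cyc1, the cytochrome c1 of complex III, at 17.6 ± 2.74, Atp5a1, the alpha subunit of ATP synthase, at 16.3 ± 0.364, Ndufs8, an iron-sulfur subunit of complex I, at 16 ± 1.18, and Cox4i1, a regulatory subunit of complex IV, at 15.5 ± 0.902 (SD, n = 3 each). The SDs of these last 4 overlap, so their order is not resolved. Uqcrfs1, the Rieske protein (9.40), Atp5c1, the central stalk of ATP synthase (9.16), Cox5b (8.0), Ndufv2 (7.82), Cox5a (7.43), Ndufs1 (7.40), Ndufv1 (7.17), Ndufs3 (7.08) and Ndufs7 (6.43) lay close to the median of the 97. Sdha, the flavoprotein of complex II (5.19), and Uqcrc2 (4.27) lay below it. All of these densities average over windows of unlike length, whose part in this range was not tested.

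Around the 78 known starts, H3K4me3 formed a sharp peak. The bin at the start averaged 37.6 times the genome mean, against 15.9 over all 17274 starts, and the bin 5 kb downstream averaged 3.35, against 2.12. CTCF at 10000 cells had 8.17 at the start, against 4.44, and Pol2S2P in single staining had 10.9, against 5.64. H3K27ac at 1000 cells (3.42 against 2.30) and Pol2S2P in dual staining at 1000 cells (4.0 against 2.20) had lower and broader profiles. The densest bin of the window lay within 1 kb of the start in 67 of 78 genes for H3K4me3, 56 for CTCF, 36 for H3K27ac, 35 for Pol2S2P in dual staining and 52 for Pol2S2P in single staining. No such count is given for all genes. Windows are as short as 5 bins, so the bins near the start can be a large part of a window.

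**Figure D2:**
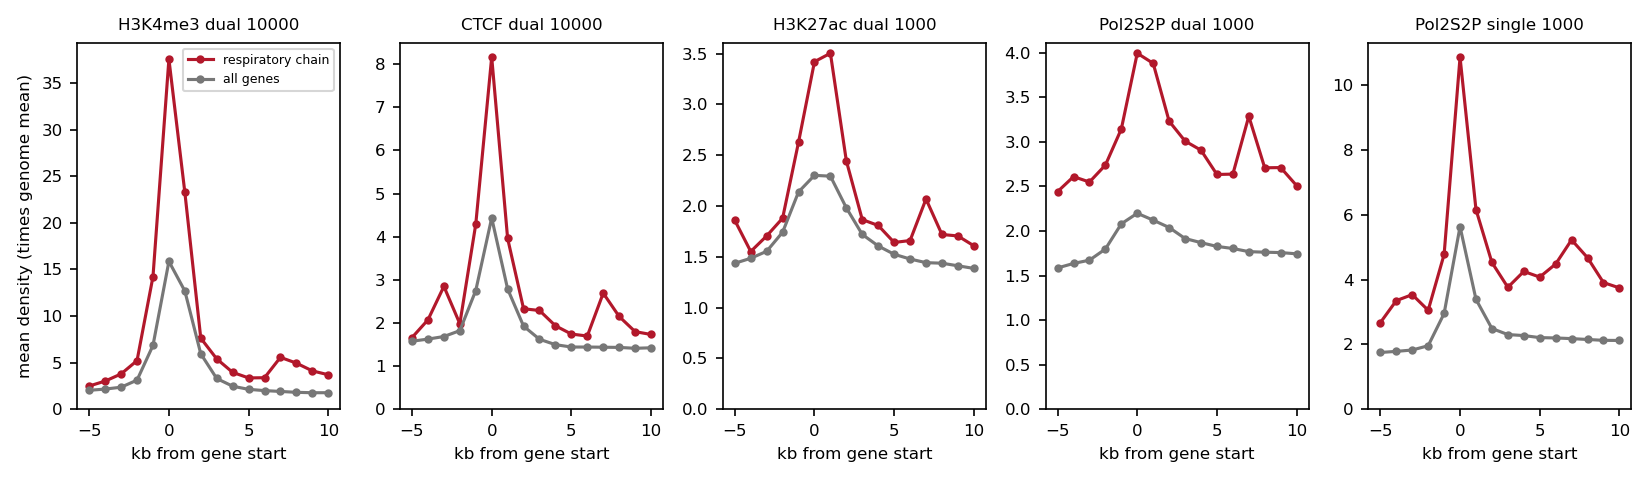
Mean density (times the genome mean) in 1 kb bins by distance from the gene start, for the 78 respiratory genes with a known start and for all 17274 genes, 1 panel per target and staining mode. The respiratory genes reach 37.6 at the start in H3K4me3, against 15.9 over all genes, and the other targets peak lower.

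Many of these starts are shared. A start on the opposite strand of another gene stood close by at 21 of the 78 (26.9%), against 7.61% of all genes. Within 1 kb of the start, H3K4me3 at 10000 cells had a median of 33.5 at the 21 genes with such a partner and 18.9 at the other 57. For CTCF at 10000 cells the medians were 4.94 and 4.67. The window at such a start also covers the partner's start, and the share of each gene was not tested.

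CTCF was highest at the start of Ndufaf4, a complex I assembly factor (chr4:24898083-24905001), whose window shares no bin with another coding gene. Its start held 25, 20.1 and 23.1 times the genome mean in dual staining at 10000 cells, 19.9, 18.6 and 12.1 in dual staining at 1000 cells, and 20.7 and 18.6 in single staining. All 8 CTCF libraries thus placed it far above the median start of the chain, 4.76. H3K27ac there was near the median start of the chain (2.50), at 2.24, 1.74 and 3.92 at 1000 cells, while H3K4me3 at 10000 cells was 57.0, 43.6 and 45.4. Atp5g2 (15.2), Uqcrh (12.2), Atp5g1 (12.2), Ndufa6 (12.1) and Ndufv1 (10.6) followed for CTCF at 10000 cells. After these levels had been seen, the promoters were searched on both strands for the core of the CTCF motif, whose match is in capitals in the sequence that follows. It stood in 3 of 78 respiratory promoters (3.85%), those of Ndufaf4, Atp5g1 and Ndufa6, and in 1.46% of all. The median CTCF density at the start was 12.2 for these 3 and 4.67 for the other 75, and over all genes 5.79 for the 252 with the motif and 2.15 for the 17022 without. The other targets were also denser at promoters with the motif: H3K4me3 at 10000 cells had medians of 48.6 and 22.3 in the respiratory genes and 11.1 and 2.50 over all genes, and H3K27ac at 1000 cells had 4.96 and 2.43 in the respiratory genes. The Ndufaf4 promoter (plus strand, chr4:24897833-24898132) is shown with that match in capitals, 56 bases before the start.
Ndufaf4: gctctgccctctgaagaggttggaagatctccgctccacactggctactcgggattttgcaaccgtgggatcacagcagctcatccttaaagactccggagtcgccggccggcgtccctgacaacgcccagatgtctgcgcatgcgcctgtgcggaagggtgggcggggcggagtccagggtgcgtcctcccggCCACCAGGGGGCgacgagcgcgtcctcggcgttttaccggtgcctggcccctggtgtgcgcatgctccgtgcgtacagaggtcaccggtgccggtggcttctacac

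H3K4me3 was set against CTCF, read from the same stained cells, to ask where the 2 targets differ in their share of reads. At 10000 cells 86 of 93 tested respiratory genes were higher in H3K4me3 and 4 were lower (edgeR quasi-likelihood test, adjusted p under 0.05 over all genes), where 49.7% of all genes were called higher and 28.6% lower. The median log2 fold change was 1.69, against 0.32 over all genes. The gap between these medians was 1.37 also with TMM scaling, but 0.35 within 1 kb of the start. All 8 assembly factors, all 4 complex II genes and all 9 complex III genes were higher, as were 38 of 39 complex I genes, 16 of 17 complex V genes and 11 of 16 complex IV genes. At 1000 cells, 83 of 90 were higher and 2 lower, where 47.6% and 24.4% of all genes were called. The 83 genes higher at 1000 cells were all higher at 10000 cells, making 97.6% of the 85 called there among genes tested at both. The same overlap was not counted over all genes.

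**Figure D3:**
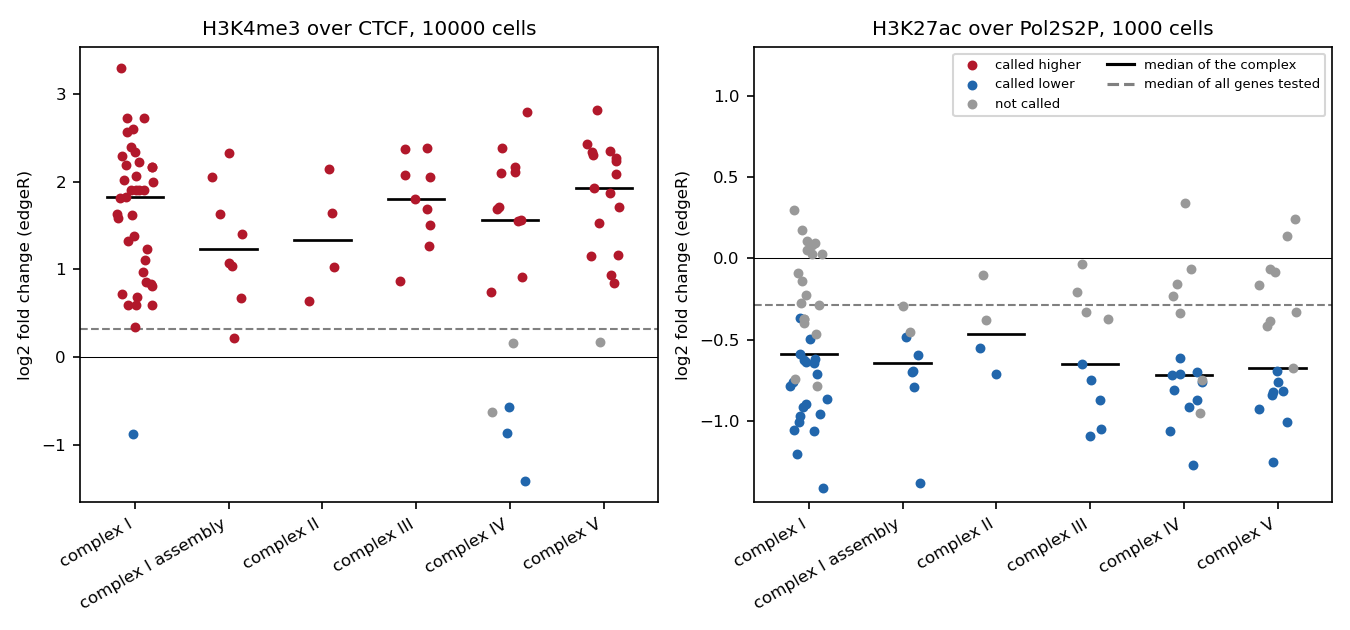
Log2 fold change from edgeR for each gene (points) by complex, for H3K4me3 over CTCF at 10000 cells and for H3K27ac over Pol2S2P at 1000 cells, with the median of each complex and the median of all genes tested (0.32 and −0.29). Most genes lie above the dashed line on the left and below it on the right, and the 4 lower genes on the left are Ndufa4l2, Cox4i2, Cox6a2 and Cox7b2.

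The largest rise was at Ndufb11, an accessory subunit of complex I. It had 43.0, 46.1 and 50.4 CPM (counts per 1000000 of the library) in H3K4me3 libraries at 10000 cells, against 4.45, 5.53 and 3.93 CPM in CTCF libraries. Its log2 fold change was 3.3 (SE 0.188, edgeR adjusted p = 1.02e-51), and its window shares bins with Rbm10. Atp5md, a small membrane subunit of ATP synthase, had 55.3 ± 1.48 CPM in H3K4me3 and 7.75 ± 2.04 CPM in CTCF (SD, n = 3 each, log2 fold change 2.82). Cox7c, a complex IV subunit that shares no bins with another gene, had 33.6 ± 4.52 CPM and 4.76 ± 0.174 CPM (SD, n = 3 each, 2.79), and Ndufb5 had 59.0 ± 3.05 CPM and 9.08 ± 2.58 CPM (SD, n = 3 each, 2.73). Ndufb11 and Ndufb5 also led at 1000 cells, with 3.49 and 2.86, followed by Ndufb10 (2.80) and Cyc1 (2.58).

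The 4 genes lower in H3K4me3 than in CTCF all belong to the tissue-restricted or inducible forms. Cox6a2, the muscle form of the Cox6a subunit, had 1.41, 2.53 and 3.45 CPM in H3K4me3 libraries at 10000 cells, against 6.87, 6.11 and 7.13 CPM in CTCF libraries (log2 fold change −1.41, SE 0.410, edgeR adjusted p = 0.000958). The H3K4me3 values rest on 2, 5 and 5 counts. Only 2 of the 6 bins of the Cox6a2 window are its own, the others being shared with Itgad, and it was not tested at 1000 cells. Ndufa4l2 had 17.6, 16.2 and 13.1 CPM in H3K4me3 and 27.3, 27.9 and 31.7 CPM in CTCF (−0.87, SE 0.174, edgeR adjusted p = 1.5e-06). Its groups did not overlap, and it fell also at 1000 cells (−0.68), but there the call was lost in the bins it shares with no other gene (−0.23, edgeR adjusted p = 0.449). Cox7b2, the testis form of Cox7b, had 16.6 ± 1.74 CPM in H3K4me3 and 29.9 ± 2.73 CPM in CTCF (SD, n = 3 each, −0.86). Per kb, over its 110 bins, these are 0.398 and 0.715 times the genome mean, so both targets were below that mean. Cox7b2 also fell at 1000 cells (−0.54, edgeR adjusted p = 0.0276), where leaving out either of 2 H3K4me3 libraries or 1 CTCF library gave −0.52, −0.48 and −0.50 and ended the call. Cox4i2, the lung form of Cox4, had 14.5 ± 0.905 CPM in H3K4me3 and 21.4 ± 0.231 CPM in CTCF at 10000 cells (SD, n = 3 each, −0.56). It was not called at 1000 cells, and 7 of its 16 bins are its own, the others being shared with Bcl2l1. The test did not call the muscle forms Cox7a1 (0.16) and Cox8b (−0.63), nor Atp5mpl of ATP synthase (0.17). The restricted forms Cox6b2 and Cox8c did not pass the count filter and were not tested.

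The 8 pairs of tissue-restricted and ubiquitous isoforms separated completely in H3K4me3. Cox8a is the partner of both Cox8b and Cox8c, so the pairs are not all separate. In all 8 pairs, at 10000 cells and again at 1000 cells, every library of the restricted form was below every library of its partner. At 10000 cells Cox7b2 had 0.398 ± 0.0417 and Cox7b 9.53 ± 0.942 times the genome mean, Cox8b 1.19 ± 0.610 and Cox8a 14.1 ± 1.25, and Cox6a2 1.08 ± 0.448 and Cox6a1 13.6 ± 2.98 (SD, n = 3 each). The smallest ratio in H3K4me3 at 10000 cells was that of Cox7a1 (2.40 ± 1.53) and Cox7a2 (6.01 ± 0.210, SD, n = 3 each). These densities are averages over windows of unlike length: Cox7a1 has 7 bins and Cox7a2 21, Cox7b2 110 and Cox7b 11. The size and order of the gaps can therefore reflect window length. Within 1 kb of their starts, given above, Cox7a1 and Cox7a2 were further apart.

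**Figure D4:**
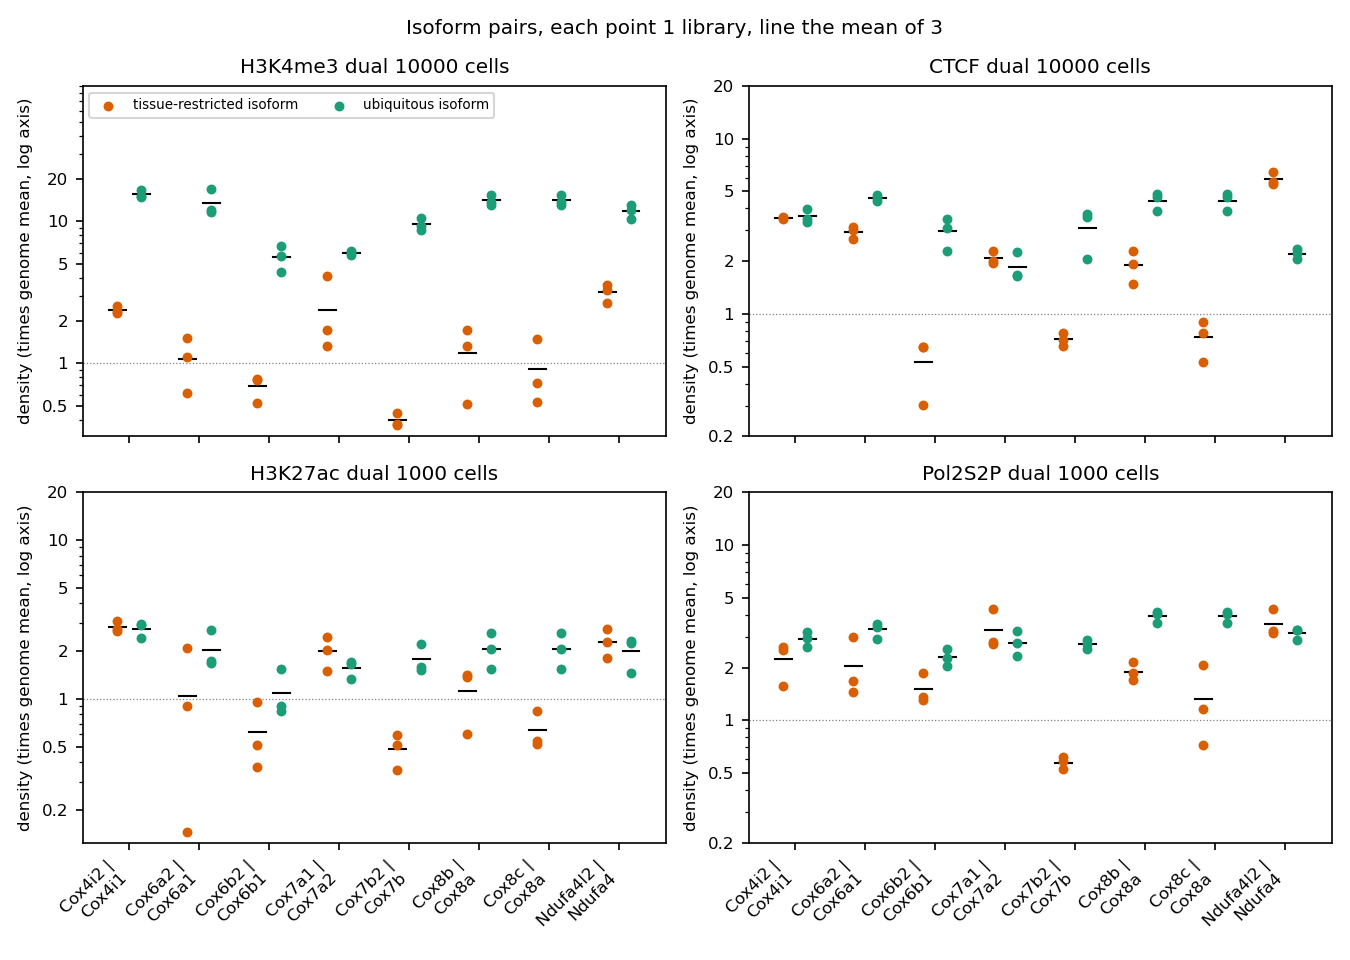
Density over each gene (times the genome mean, log axis) of the 8 tissue-restricted isoforms, left, and their ubiquitous partners, right, in 4 dual-staining groups; each point is 1 library and each line the mean of 3. All 8 pairs are apart in H3K4me3, while in H3K27ac 5 pairs overlap.

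In the other targets the ubiquitous form was higher without overlap in fewer pairs. These were 5 pairs for CTCF at 10000 cells, 3 for H3K27ac at 1000 cells, 5 for Pol2S2P in dual staining at 1000 cells and 6 for Pol2S2P in single staining. Single staining has 2 libraries, with which groups fall apart more easily than with 3. Pairs of other genes were not counted. At 100 cells the numbers were 5 for H3K27ac and 3 for Pol2S2P, and there Cox4i2 was above Cox4i1 for H3K27ac, at 2.58 ± 0.0640 and 1.32 ± 0.770 (SD, n = 3 each). Ndufa4l2 ran the other way for CTCF, with 5.86 ± 0.489 against 2.21 ± 0.150 at Ndufa4 (SD, n = 3 each), and for Pol2S2P in single staining, with 8.45 against 4.66 (n = 2 each). Its window takes in part of Shmt2 and Stac3, whose part in these values was not tested. Cox7a1 was also above Cox7a2 for Pol2S2P in single staining, at 4.73 and 4.46 (n = 2 each).

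Cells stained for H3K27ac and Pol2S2P gave the second comparison of targets. At 1000 cells, 51 of 94 tested genes were lower in H3K27ac and none was higher (edgeR, where 37.3% of all genes were called lower and 10.5% higher), and the median log2 fold change was −0.63, against −0.29 over all genes. The count depends on how libraries are scaled: with TMM, which moved the median of all genes to 0.01, 26 were lower and 4 higher, and with DESeq2 13 were lower and 2 higher. The gap between the respiratory genes and all genes was −0.34 in the first fit and with TMM and −0.35 with DESeq2. At 100 cells, 21 of 72 tested were lower, which is near the share of all genes (26.3%). None was higher, against 8.57% of all genes, and the median was −0.57, against −0.30 over all genes. The number called at 100 cells was 7 with TMM and 4 with DESeq2, either direction. Calls over all genes are given at the end for TMM and are not given for DESeq2. The TMM and DESeq2 counts alone therefore do not set the respiratory genes against all genes. Of the 41 lower at 1000 cells among genes tested at both, 20 (48.8%) were lower at 100 cells, and these are 95.2% of the 21. This overlap was not counted over all genes.

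Ndufab1, the mitochondrial acyl carrier protein that is also a complex I subunit (chr7:122086815-122101848), was lowest in both. It had 14, 8.28 and 10.3 CPM in H3K27ac libraries at 1000 cells, against 29.9, 27.2 and 30.05 CPM in Pol2S2P libraries (log2 fold change −1.41, SE 0.184, edgeR adjusted p = 5.93e-12). At 100 cells it had 4.61, 14.6 and 6.04 CPM in H3K27ac, against 37.3, 38.7 and 31.1 CPM in Pol2S2P (−2.07, SE 0.314, edgeR adjusted p = 8.64e-08). The groups did not overlap at either cell number, and no other coding gene shares its bins. Its densest bin for Pol2S2P in dual staining (9.88 times the genome mean) and for CTCF (22.7) was the same bin, 2.84 kb downstream of its start.

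Ndufaf1, an assembly factor (−1.38), Atp5e, the epsilon subunit of ATP synthase (−1.25), and Ndufc2, an accessory subunit of complex I (−1.20), followed at 1000 cells. At 100 cells Atp5j2 (−1.56), Sdha (−1.44) and Ndufa9 (−1.24) followed, with 10.3 ± 2.17 CPM in H3K27ac and 28.3 ± 2.58 CPM in Pol2S2P at Sdha (SD, n = 3 each). Ndufa9 lost its call without 1 Pol2S2P library (−0.85, edgeR adjusted p = 0.12). Of the ubiquitous isoforms 6 of 7 were lower at 1000 cells, and of the tissue-restricted forms 3 of 7 tested, Ndufa4l2, Cox6b2 and Cox7a1, where 37.3% of all genes were lower. The calls at these 3 were lost with TMM, as were those at Cox6a1, Cox7b, Cox8a and Ndufa4. Within 1 kb of the start, Ndufa4 was higher in H3K27ac without a call (0.25).

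Single and dual staining could be compared for Pol2S2P at 1000 cells. In dual staining 67 of 95 tested genes were lower and none was higher (edgeR, where 37.5% of all genes were called lower and 9.9% higher), with a median log2 fold change of −0.65, against −0.24 over all genes, and 91 of 95 values below 0. With TMM 35 were lower and 1 higher, a count that does not by itself set these genes against all genes, whose calls with TMM are given at the end. Lower calls made up 28 of 39 in complex I, 5 of 8 in the assembly factors, 3 of 4 in complex II, 6 of 9 in complex III, 10 of 18 in complex IV and 15 of 17 in complex V. Within 1 kb of the start the respiratory genes did not stand apart: the median was −1.02, against −1.03 over all genes, and 49 of 73 were lower, as were 5485 of 8085 genes tested in that window.

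**Figure D5:**
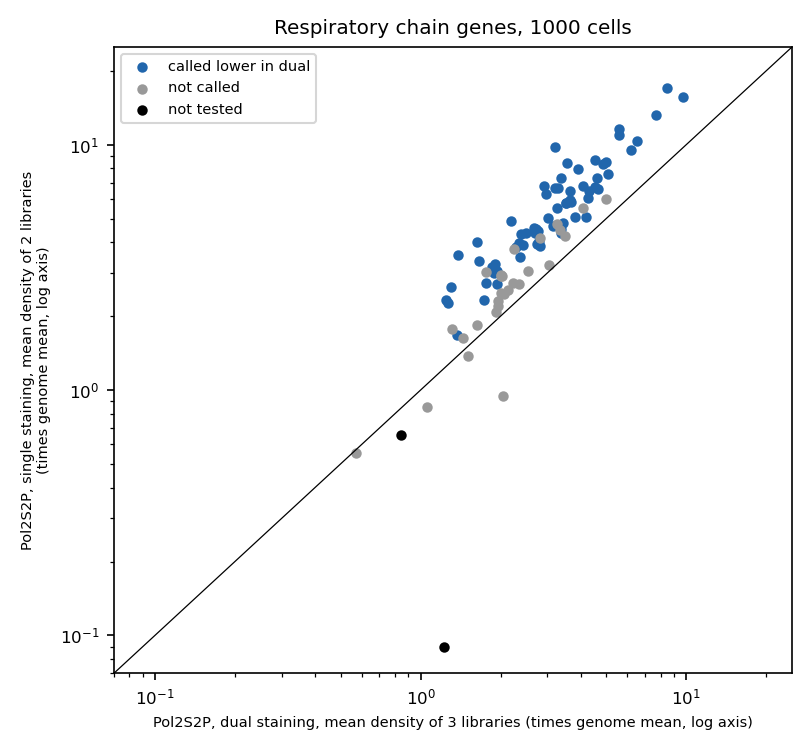
Mean Pol2S2P density (times the genome mean, log axes) of each respiratory gene in dual staining at 1000 cells (3 libraries, horizontal) and in single staining at 1000 cells (2 libraries, vertical), coloured by the edgeR call. Most points lie above the line of equal density, and the median over the genes is 2.77 in dual and 4.35 in single staining.

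Ndufaf3, a complex I assembly factor, had 7.95, 8.86 and 5.11 CPM in dual staining, against 23.0 and 21.7 CPM in single staining (log2 fold change −1.61, SE 0.245, edgeR adjusted p = 1.28e-09). None of the 6 bins of the Ndufaf3 window is its own. They are shared with Dalrd3 and Impdh2, so these counts cannot be assigned to Ndufaf3. Uqcrb, a ubiquinone-binding protein of complex III, fell by 1.34 and Ndufb7 of complex I fell by 1.3 on the log2 scale. Cox4i1 had 11, 13.3 and 12.3 CPM in dual staining, against 28.3 and 28.3 CPM in single staining (−1.22, edgeR adjusted p = 4.96e-08), and Ndufa4l2 fell by 1.25. All 7 ubiquitous isoforms were lower, and so were 2 of the 8 restricted forms, Ndufa4l2 and Cox8b, where 37.5% of all genes were lower. Several restricted forms rest on few counts, and the difference between the lists was not tested. The call at Cox8b was lost with the replicate block (−0.73, edgeR adjusted p = 0.121) and when any 1 of 4 of the 5 libraries was left out (−0.93 to −0.63). Staining mode here also differs in the number of libraries, and what sets the difference was not tested.

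CTCF in dual and single staining at 10000 cells differed little over these genes. None of 94 was called (edgeR, where 0.588% of all genes were called), and 14 had an unadjusted p under 0.05. Log2 fold changes ran from −0.31 to 0.90, with a median of 0.07. Cell number moved few genes. For H3K4me3 at 10000 over 1000 cells, 2 of 91 genes were called, both higher (1.83% of all genes were called higher). Uqcrb had 29.1 ± 4.79 CPM at 10000 cells and 15.3 ± 2.08 CPM at 1000 cells (SD, n = 3 each, log2 fold change 0.89, edgeR adjusted p = 0.0336), and Ndufs8 had 54.6 ± 4.02 CPM and 36.4 ± 7.51 CPM (SD, n = 3 each, 0.63, edgeR adjusted p = 0.0283). Both calls were lost with TMM (edgeR adjusted p = 0.0662 and 0.0679) and when most single libraries were left out.

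No respiratory gene was called by cell number for CTCF in dual staining (0.144% of all genes called, 12 of 93 with an unadjusted p under 0.05), for H3K27ac (0%, 2 of 81) or for Pol2S2P in dual staining (0.00601%, 4 of 91), with edgeR, and DESeq2 called none either. Whether the fold changes between targets differ by cell number was tested as an interaction. No gene of the chain was called for H3K4me3 over CTCF (0.041% of all genes, 6 of 93 with an unadjusted p under 0.05) or for H3K27ac over Pol2S2P (0%, 3 of 92), with edgeR. A fold change that misses the threshold does not show that values were equal, and H3K4me3 at 1000 cells rests on as few as 719766 counts.

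Lists of other mitochondrial genes were counted in the same way for H3K4me3 over CTCF at 10000 cells, where 49.7% of all genes were higher. Of the mitochondrial ribosomal proteins 70 of 78 were higher and 2 lower, with a median of 1.46. Of the enzymes of the citric acid cycle 12 of 13 were higher, and Suclg2, a succinate-CoA ligase subunit, was lower (−0.21). The assembly factors of complexes II to V had 27 of 32 higher, with Sdhaf3 lower (−0.37). Among electron carriers Cycs, the somatic cytochrome c, was higher (1.78) and Cyct, its testis form, lower (−1.19). Of 14 regulators 10 were higher, with Yy1 (2.13), Gabpa (1.89), Esrra (1.75) and Nrf1 (0.65) among them, and Ppargc1a, the inducible coactivator of mitochondrial biogenesis, was lower (−0.74). For H3K27ac over Pol2S2P at 1000 cells, where 37.3% of all genes were lower and 10.5% higher, 12 of 13 citric acid cycle genes were lower, and 34 of 78 mitochondrial ribosomal proteins were lower and 5 higher, which is near the share of all genes. For Pol2S2P in dual over single staining, where 37.5% of all genes were lower, 49 of 78 mitochondrial ribosomal proteins were lower.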

How the data were processed

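Counts per 1 kb bin were deposited by the authors as 1 whole-number count table; per the submitters' processing notes, bcl2fastq, HISAT2 2.1.0, deepTools 3.3.1 and GRCm38 were used. Of its columns, 28 were matched to samples by name, 4 matched no sample and were not used, and 6 samples at 100 cells were not analysed here. Of 2728634 bins, 2631639 lie on the autosomes and X, and 9 over 50 times the genome mean were removed. Counts were summed over the bins overlapping each gene span with 2 kb on either side, from GRCm38 gene tables. Library size was the total over these bins. All genes passing edgeR's filterByExpr were fitted with edgeR 4.0.16 (R 4.3.3, quasi-likelihood test, Benjamini-Hochberg adjustment, threshold 0.05), checked on simulated data. Density is counts per bin over the genome mean. Fold changes between targets compare shares of reads, not amounts of protein. The counts per bin hold no molecular identifiers, so copies made by amplification cannot be told apart in them. SDs between libraries do not separate amplification from other spread. Python 3.11.15 with pandas 2.3.3 and numpy 2.4.6 computed densities and promoter counts. Alternatives were TMM, DESeq2 1.42.0, no filter, the 1 kb around the start, unshared bins, each library left out and a replicate block. The genes named per comparison are up to 4 (3 within a target) with the largest called change in each direction, without overlap and with at least 20 counts, plus isoforms, extremes per complex and core subunits. Atp5g2, Atp5g1, Ndufa6, Ndufv1, Ndufs4 and the genes whose promoters are shown were chosen after their values were seen. Members and gene lists were chosen with earlier results of these data known. Replicate numbers pair H3K27ac and Pol2S2P libraries by the correlation of their deviations from the group means over genes (0.115 to 0.121 at 1000 cells, 0.108 to 0.112 at 100 cells, above 0.1 in every pair). Column names of same-numbered dual-staining libraries differ only in the target read, and no label states further what a number shares. The main fits between targets left replicate numbers out, and the replicate block took them in. The level of 1 complex I gene is not reported here.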

Additional observations from a re-analysis of the deposited data

How the results depend on the processing

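For H3K4me3 over CTCF, the respiratory genes called stayed within 1.5 times the first count under every alternative. The counts of H3K27ac over Pol2S2P moved: at 1000 cells to 30 with TMM, 15 with DESeq2 and 6 within 1 kb of the start (45 tested), and at 100 cells to 7, 4 and 1 (6 tested). For H3K4me3 at 10000 over 1000 cells, TMM, DESeq2, the start window and unshared bins each left 0. For Pol2S2P in dual over single staining, TMM gave 36 and DESeq2 14. Calls over all genes with TMM are given below. Those with DESeq2, and those in the start window for H3K27ac over Pol2S2P, are not given here. Without them, these counts alone do not set the respiratory genes against all genes. Ndufa4 turned to 0.25 (edgeR adjusted p = 0.747) for H3K27ac over Pol2S2P at 1000 cells within the start window; the cause was not tested. Leaving out each library gave 88 to 90 and 81 to 85 genes for H3K4me3 over CTCF at 10000 and 1000 cells, 38 to 46 and 15 to 19 for H3K27ac over Pol2S2P at 1000 and 100 cells, 0 to 1 for H3K4me3 by cell number, 45 to 61 for Pol2S2P in dual over single staining, and 0 for the others. With the replicate block, the counts were 90, 85, 53, 26, 3 and 60 in that order, and the only named call lost was Cox8b.

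Scaling moved the median of all genes, from 0.32 to −0.08 with TMM for H3K4me3 over CTCF at 10000 cells. Higher and lower calls over all genes were 8687 and 4997 there, against 6902 and 7270 with TMM. At 1000 cells they were 7619 and 3899, against 5782 and 5968. For H3K27ac over Pol2S2P they were 1823 and 6472 at 1000 cells, against 3606 and 3223, and 1212 and 3722 at 100 cells, against 2191 and 1674. For H3K4me3 by cell number they were 271 and 77, against 107 and 165, and for Pol2S2P in dual over single staining 1759 and 6657, against 3185 and 2949.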
